A study of Homo sapiens with 6 samples.

Results

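Classical cadherins are single-pass membrane proteins that join neighbouring cells through calcium-dependent binding of their outer domains. The genes examined were 9 of that family and its near relatives, CDH1, CDH2, CDH3, CDH4, CDH5, CDH6, CDH8, CDH11 and CDH13. The members were all probe sets that the platform annotation assigns to 1 of these genes alone. There were 20 such probe sets among 54613 that are not controls, and they covered 7 of the 9 genes. CDH4 and CDH13 have no probe set in the annotation used and are not analysed here. The 9 genes do not all fit the label strictly, since CDH5 is often set apart from the classical group and CDH13 has no cytoplasmic tail and is held by a lipid anchor.

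The data were 6 Affymetrix arrays of total RNA in 1 colour, 3 in each of 2 groups. The parental group was untransfected MDA-MB-231, an established human breast tumour line with a mesenchymal-like form. The other group, named 231wCFry in the labels, was MDA-MB-231 stably transfected with the wild-type Cop rat Fry cDNA, put through puromycin selection and taken as 1 clone for its Fry level. No clone with an empty vector is described, both groups grew in the same medium, and samples within a group differed in passage number. The samples are not said to be separate cultures, so the p-values measure only the spread between these samples, which may be technical.

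The label of the second group did not match its array readings at several defining genes. CDKN2A lies in a region that MDA-MB-231 is known to have lost. Its signal was 0.2, 0.3 and 1.1 on the parental arrays and 900.5, 911.9 and 809.2 on the arrays labelled Fry clone. Human FRY has 4 probe sets, all below the filter on low values used here, and the brightest read 6.7, 4.8 and 6.0 against 4.0, 5.0 and 2.9, and whether they can read the rat transgene was not determined. Of 9 melanocyte and neural crest markers named on the array, 7 of the 8 tested were higher and 0 lower on the arrays labelled Fry clone. SOX10, S100B, MLANA and TYR averaged below the filter level on the parental arrays and passed it through the other arrays. The count is therefore a description. PMEL was the marker that did not pass. In sum the 9 markers read 653.6 to 714.3 in parental samples and 5413.9 to 5994.9 in the rest. Of 7 neuron markers 3 of 4 tested were higher and 0 lower, with a summed signal of 76.3 to 130.5 against 625.5 to 847.7. MAP2 alone gave most of the second sum, with a signal of 36 to 81.2 against 520.9 to 728.4. RBFOX3 did not pass, and STMN2, ELAVL4 and DCX lay below the filter. Of 10 epithelial markers 9 were lower and 0 higher, with a summed signal of 8835.8 to 9543.2 against 1701.9 to 1870.6. EPCAM, KRT19, CLDN7, SPINT1 and SPINT2 averaged below the filter level on the arrays labelled Fry clone and passed it through the parental arrays. That count is a description too. Over all 13630 genes tested 67.1% passed, 34.1% higher and 33.1% lower, and the marker counts are to be read beside these shares. The mesenchymal filament gene VIM read 3463 ± 200 and 3954 ± 521 (SD, n = 3) and did not pass (adjusted p = 0.18). GAPDH control probes at the 3' end read 1.36 to 1.39 times those at the 5' end in parental samples and 1.24 to 1.33 times in the others, a measure of RNA integrity. CDKN2A, the summed marker signals and the GAPDH ratio moved with the groups compared below, and their part in the differences was not tested. No difference below can be assigned to Fry, since clone, selection and cell identity cannot be told apart from the transgene.

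Inside the cell, the tail of a classical cadherin binds p120-catenin and beta-catenin or plakoglobin. Alpha-catenin then couples the complex to actin. E-cadherin (CDH1) and P-cadherin (CDH3) are typical of epithelia, N-cadherin (CDH2) of neural, mesenchymal and many melanocytic tumour cells, and cadherin-11 (CDH11) of mesenchymal cells. Breast carcinoma cells of the mesenchymal kind commonly lack E-cadherin, and MDA-MB-231 is one such line. VE-cadherin (CDH5) is the cadherin of endothelial junctions, and CDH6 and CDH8 are type II cadherins best known from kidney and brain.

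CDH2 was the member that rose, and the promoter windows of its annotated starts are shown to give the sequence context of that gene. Of the 9 members, 3 had an entry in the RefSeq promoter table (GRCh38.p14), namely CDH2, CDH4 and CDH8. Of these, CDH2 changed, CDH8 did not pass and CDH4 is not analysed here. Each window runs from 250 bases before to 50 bases after a start, on the minus strand, and capitals mark matches to the motifs searched.
CDH2 start at chr18:28177081-28177380: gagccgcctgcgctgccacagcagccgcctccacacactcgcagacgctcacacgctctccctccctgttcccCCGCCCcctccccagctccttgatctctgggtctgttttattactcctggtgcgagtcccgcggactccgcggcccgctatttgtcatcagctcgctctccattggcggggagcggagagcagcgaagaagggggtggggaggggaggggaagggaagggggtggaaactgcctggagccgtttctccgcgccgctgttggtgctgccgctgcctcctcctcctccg
CDH2 start at chr18:28036592-28036891: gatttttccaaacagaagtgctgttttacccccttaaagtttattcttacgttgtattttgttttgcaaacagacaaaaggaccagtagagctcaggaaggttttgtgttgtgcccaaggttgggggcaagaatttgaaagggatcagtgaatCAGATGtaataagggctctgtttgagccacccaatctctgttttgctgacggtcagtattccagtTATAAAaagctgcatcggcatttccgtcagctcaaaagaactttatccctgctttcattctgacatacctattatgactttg

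The windows differ in base composition. The upper one is 67% G and C with 23 CG dinucleotides, and the lower one 40.7% with 4, against a median of 14 over 35116 promoter windows of the same length. Motifs were searched on both strands. The upper window holds 1 GC box, spelled GGGCGG and read there on the opposite strand, which is present in 45% of all windows. The lower holds 1 TATA box, spelled TATAAA, which is present in 11.5%. It also holds 1 E-box, spelled CANNTG, the motif bound by factors such as TWIST1, which is present in 68.7%. Neither window holds CAGGTG, the form of the E-box favoured by ZEB and SNAI factors, which is present in 20.6% and is included in the E-box count. Neither holds the SOX motifs searched, ACAAAG with a share of 16.1% and ACAATG with a share of 10.8%. Which start the array's probe sets read was not determined.

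CDH2 rose strongly in the samples labelled Fry clone. Probe set 203440_at read 44.5, 39.8 and 44.9 on the parental arrays and 1819.8, 1598.7 and 2128.1 on the arrays labelled Fry clone. All 3 arrays of the second group lay far above all 3 parental arrays, with geometric means 42.7-fold apart. On the scale of log2(signal + 16), on which every test was run, the difference was 4.97 (SE 0.12, limma adjusted p = 1.18e-09). Probe set 203441_s_at read 7.2, 3.2 and 7.1 against 190.7, 198.8 and 191.1. Its groups did not overlap either, and the difference was 3.27 (SE 0.10, adjusted p = 7.05e-09). The parental cells still gave a CDH2 signal on the first of these probe sets, above the median of all probe sets on every array (10.4 to 12.1). On the second they read below it.

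CDH11 fell to or near background. Probe set 207173_x_at read 778.6, 791.9 and 750.6 on the parental arrays and 0.2, 0.2 and 0.3 on the arrays labelled Fry clone. The level taken as background was the highest of 27 unspiked bacterial control probe sets on each array, 2.5 to 4.9. Against that level the signal was at least 219.7-fold lower (log2 difference -5.60, SE 0.08, adjusted p = 1.85e-10). This probe set is of a type prone to cross-hybridise, so the other CDH11 probe sets were read as well. Probe set 236179_at went from 83.5, 82.1 and 63.7 to 1.2, 2.3 and 1.7, at least 21.5-fold lower (log2 difference -2.38, SE 0.11, adjusted p = 9.22e-08). Probe set 239286_at went from 50.4, 58.3 and 44.1 to 2.8, 2.4 and 2.4, at least 14.4-fold lower (log2 difference -1.85, SE 0.10, adjusted p = 3.28e-07). All 4 CDH11 probe sets fell, and in each the lowest parental array lay above the highest array of the other group. Fibroblast markers, which share the mesenchymal setting of CDH11, moved both ways. Of 9 named, 4 were higher and 3 lower, with a summed signal of 374.2 to 456.5 against 958.7 to 1059.7. COL1A2 alone gave most of the second sum, with a signal of 35.8 to 42.7 against 779.4 to 875.5. The 3 that fell were COL1A1, LUM and PDGFRB, with 1 of 3 tested COL1A1 probe sets not passing. PDGFRB averaged below the filter level on the arrays labelled Fry clone, and PDGFRA and THY1 on the parental arrays. Each passed the filter through its high group, so the count is a description. What part fibroblast markers had in the result was not tested. The remaining CDH11 probe set, 207172_s_at, went from 102.6, 93.7 and 68.8 to 4.4, 4.6 and 6.0 (log2 difference -2.30, SE 0.13, adjusted p = 3.91e-07). Because bulk RNA was measured, fewer cells that express a gene and less RNA per cell cannot be told apart.

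**Figure D1:**
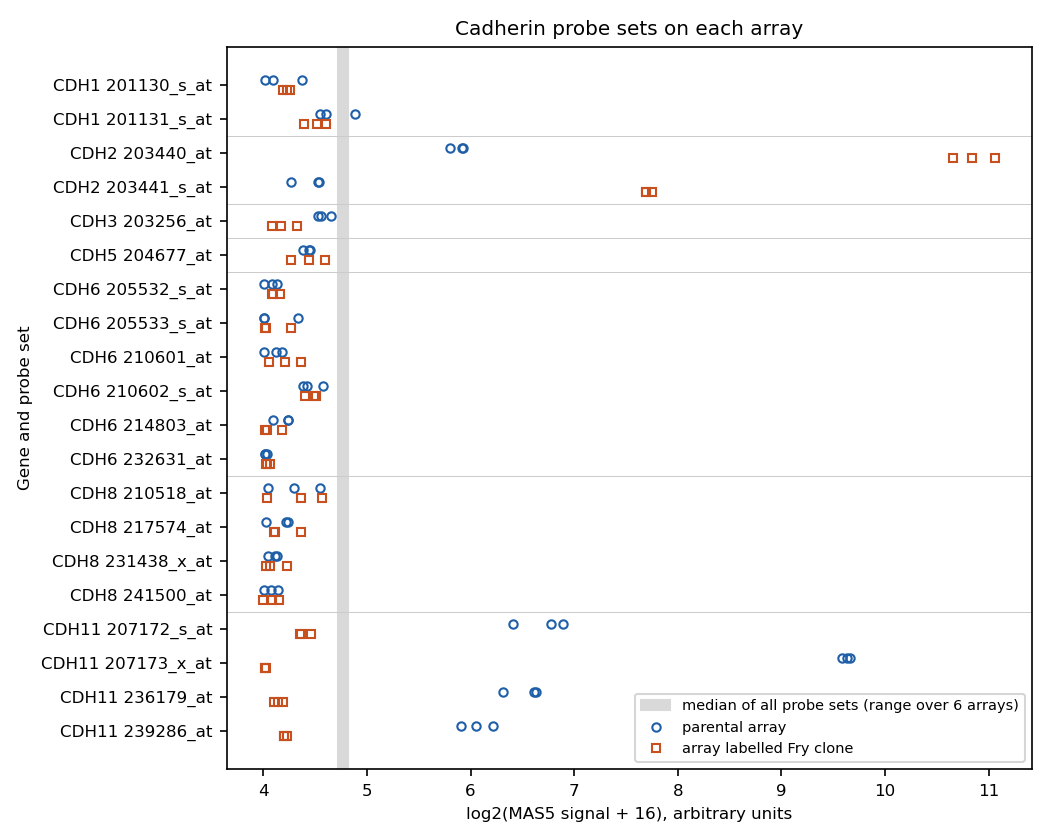
Signals of all 20 cadherin probe sets, one row each, on the scale of log2(MAS5 signal + 16), with circles for the 3 parental arrays, squares for the 3 arrays labelled Fry clone and a grey band for the median of all probe sets (signals of 10.4 to 12.1). CDH2 lies to the right on the arrays labelled Fry clone, CDH11 on the parental arrays, and the other probe sets lie at or left of the band except for 1 parental reading of CDH1 (13.5).

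The epithelial cadherins were dim in both groups. CDH1 read 13.5, 7.4 and 8.3 on the parental arrays and 6.9, 5.0 and 8.3 on the others at 201131_s_at. Only 1 of these 6 readings exceeded the median signal of its array, and the groups overlapped. The difference was -0.17 on the log2 scale and did not pass (limma adjusted p = 0.21). In a fit of all probe sets without the filter on low values, its 95% interval was -0.43 to 0.08 (adjusted p = 0.28). The other CDH1 probe set, 201130_s_at, read 0.2 to 4.7 and 2.3 to 3.1. EPCAM, an epithelial surface protein, read 206.0, 228.8 and 268.7 on the same parental arrays. CDH3, which neighbours CDH1 in the gene order, read 7.0, 9.2 and 7.6 against 4.0, 2.0 and 1.0 on its 1 probe set. Those groups did not overlap, but the probe set lay below the filter on low values (a mean of 5.87 over the arrays). In a fit of all probe sets without that filter it was lower in the second group (log2 difference -0.39, SE 0.09, adjusted p = 0.0080), with every reading under the array's median.

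CDH5 was dim in both groups. It read 5.7, 5.9 and 4.8 on the parental arrays and 8.1, 5.7 and 3.3 on the arrays labelled Fry clone, with overlapping groups (log2 difference 0.01, 95% interval -0.21 to 0.23). Other endothelial markers were mixed: of 9 named, 4 passed the filter on low values, and 3 of those fell and 1 rose. KDR averaged below the filter level on the arrays labelled Fry clone and TEK on the parental arrays, so the count is a description. ESAM, an adhesion molecule of endothelial junctions, went from 463 ± 32.6 (SD, n = 3) to 11.4 ± 1.0 and PECAM1 from 209.8 ± 58.4 to 9.17 ± 3.91 (limma adjusted p at most 6.34e-07). The summed signal of the 9 was 627.6 to 748.6 on parental arrays and 33.0 to 56.3 on the others, while CLDN5 read at most 1.0 on every array. The 1 that rose, TEK, stood at 7.1 to 15.5 on the arrays labelled Fry clone, and its call was lost without the second parental array (adjusted p = 0.051) and with a pseudocount of 64 in place of 16 (adjusted p = 0.057).

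CDH6 and CDH8 were dim on all arrays. The 6 probe sets of CDH6 read 0.1 to 7.8 over all arrays and the 4 of CDH8 read 0.0 to 7.7, so every reading lay below the median signal of its array. Of these 10 probe sets 1, 210602_s_at of CDH6, passed the filter on low values. In the fit without the filter 0 of the 10 passed, and their differences lay between -0.12 and 0.11 on the log2 scale. The widest interval among them was -0.36 to 0.41, for 210518_at of CDH8. Of the 10, 5 were not above background on any array of either group, against 13.9% of all probe sets. At such signals small changes could not be detected.

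Over the family 8 probe sets passed the filter and 12 lay below it. Of the 8, 2 rose and 4 fell. Across all 32771 probe sets tested, 62.6% passed in either direction (30.3% higher and 32.3% lower), so a passed test alone does not mark a cadherin. Without the filter 2 were higher and 5 lower of 20, against 38.1% in either direction among all 54613 (18.3% higher and 19.7% lower). In 7 of the 20 the parental and Fry clone readings were fully separate, against 46.4% of all. The median difference of the 20 was 0.01 and that of all probe sets -0.01. Of the 6 that changed, 5 passed the filter through the group in which they were high, and these counts are a description. By size, 0.244% of tested probe sets rose by as much as CDH2 at 203440_at and 1.06% by as much as at 203441_s_at. As large a fall as that of CDH11 was seen in 0.101% at 207173_x_at, 2.06% at 207172_s_at, 1.93% at 236179_at and 3.04% at 239286_at. The CDH11 probe sets read at or near background on the arrays labelled Fry clone, and 203441_s_at of CDH2 did so on the parental arrays. Their shares therefore rest on a scale that understates changes of dim genes.

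**Figure D2:**
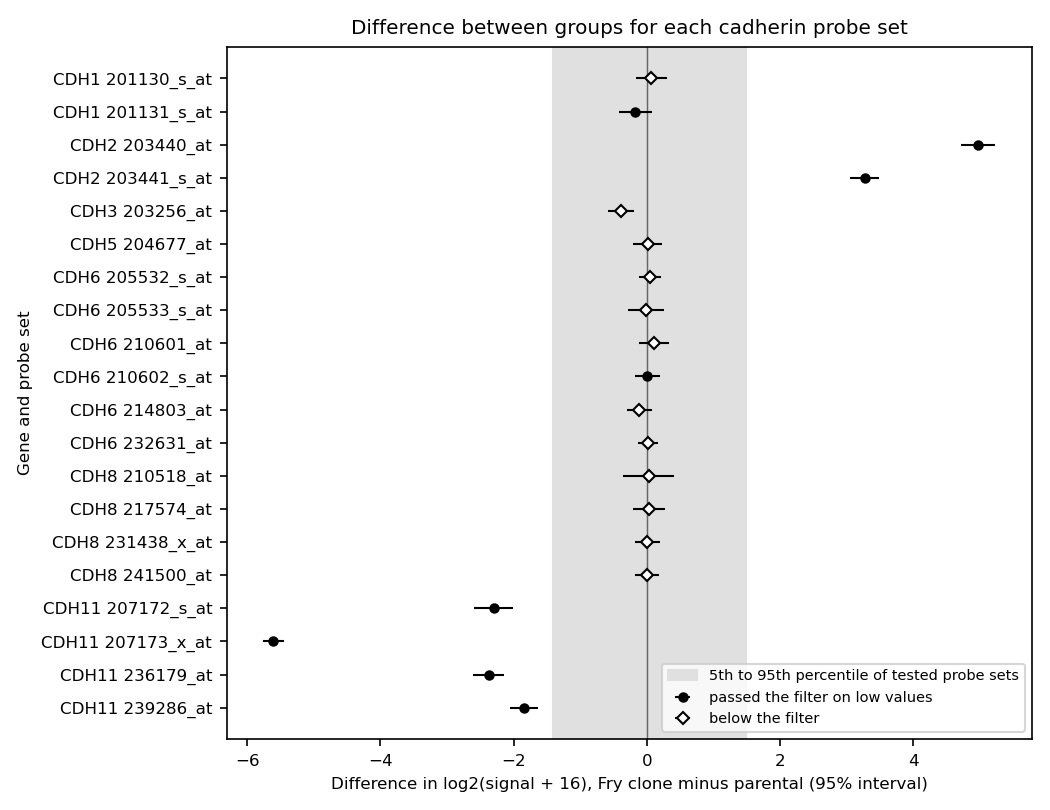
Difference in log2(signal + 16) between the samples labelled Fry clone and the parental samples for each of the 20 cadherin probe sets, with 95% intervals from the fit of all probe sets, filled circles for those that passed the filter on low values, open diamonds for those below it, and a grey band for the 5th to 95th percentile of tested probe sets (-1.41 to 1.49). The 2 CDH2 probe sets lie right of the band, the 4 of CDH11 left of it, and the rest inside.

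Patterns over 6 arrays in 2 separate groups reflect little more than the group difference. Among 13629 other genes tested, Pearson's r with CDH2 on log2(signal + 16) over the 6 arrays was highest for LINC00339 (0.9999), LRIG1 (0.9998) and FGF2 (0.9998). FGF2, a fibroblast growth factor, read 1.83 ± 1.12 (SD, n = 3) on the parental arrays and 499 ± 67.4 on the others. For CDH11 the closest were C19orf33 (0.99996), MBP (0.99996) and KCTD12 (0.99994). The same r was above 0.99 for 1043 genes with CDH2 and for 1063 with CDH11.

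The genes flanking the changed members did not all move with them. For CDH2 and CDH11 the 3 nearest tested coding genes on either side in the RefSeq order (GRCh38.p14) were read, a rule set after the values were seen. Next to CDH2, which rose, the desmosomal cadherins DSC2 (log2 difference -1.09) and DSG2 (-0.68) and the gene SS18 (-0.46) fell. B4GALT6 rose (1.34), while KCTD1 (0.09) and TAF4B (0.13) did not pass. Next to CDH11, which fell, GOT2 (1.08), SLC38A7 (1.14) and CNOT1 (0.79) rose on one side. On the other side TK2 was lower (-0.27, adjusted p = 0.047), a call lost in the fit without the filter (adjusted p = 0.061), and CKLF (-0.01) and CMTM4 (0.13) did not pass.

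Beta-catenin and alpha-catenin were lower in the samples labelled Fry clone. Of 11 named catenins and tail partners, 8 passed the filter, 1 of which was higher and 5 lower, with a median log2 difference of -0.36. Over all 13630 genes tested 67.1% passed, 34.1% higher and 33.1% lower, with a median of 0.01. Beta-catenin (CTNNB1) read 1666.0, 1855.2 and 1817.1 on the parental arrays and 1338.8, 1222.3 and 1484.5 on the others (log2 difference -0.40, SE 0.10, adjusted p = 0.0073). Alpha-catenin (CTNNA1) went from 2562 ± 152 (SD, n = 3) to 2038 ± 79.1 (-0.33, adjusted p = 0.011). Both stayed high in the second group, and all other tested probe sets of these genes were also lower.

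Plakoglobin (JUP), which takes the place of beta-catenin in some complexes and also serves desmosomes, fell as well. It read 86.3, 102.1 and 65.4 against 20.7, 19.2 and 18.8 (log2 difference -1.48, SE 0.13, adjusted p = 9.60e-06). Afadin (AFDN), which links nectins to actin, dropped from 1310 ± 57.2 (SD, n = 3) to 666 ± 52.1 (-0.96, adjusted p = 1.96e-05), and the alpha-catenin relative CTNNAL1 by 0.67. ARVCF, a relative of p120-catenin, rose from 7.27 ± 5.2 to 21.8 ± 4.18 (0.72, adjusted p = 0.0044), a dim signal. VCL, which encodes vinculin, read 1982 ± 65.5 and 1841 ± 80.9 and did not pass (adjusted p = 0.32). CTNND1 was not analysed here, and CTNNA2, CTNNA3 and CTNND2 lay below the filter.

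Desmosomal genes fell, apart from those that were dim throughout. Of 13 named desmosomal cadherins and plaque proteins, 7 passed the filter and all 7 were lower, with a median log2 difference of -1.90. Among all genes tested 33.1% were lower. Of the 7, 5 read below the filter level on the arrays labelled Fry clone and passed through the parental arrays, so the count is a description. The plaque protein PKP2 read 284.0, 253.4 and 265.5 on the parental arrays and 1.9, 2.5 and 1.8 on the others, at least 75.9-fold lower (adjusted p = 8.20e-10). Desmoplakin (DSP), which anchors keratins, read 205.1, 312.2 and 235.4 against 0.1, 0.2 and 0.1, at least 70.2-fold lower (adjusted p = 1.32e-08). Each of these groups was clear of the other.

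EVPL, a plaque protein of stratified epithelia, fell from 101 ± 13 (SD, n = 3) to 1.80 ± 1.78 (adjusted p = 5.71e-08), and PKP3 from 65.5 ± 8.88 to 8.40 ± 3.40 (adjusted p = 2.15e-06). A second PKP3 probe set did not pass. The desmosomal cadherin DSG2 went from 1340 ± 207 to 828 ± 68.6 (log2 difference -0.68, adjusted p = 0.0011), so it kept a clear signal where DSP did not. In the same samples 9 of 10 epithelial markers were lower. Some of these passed the filter only through the parental arrays, so that count is a description as well.

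**Figure D3:**
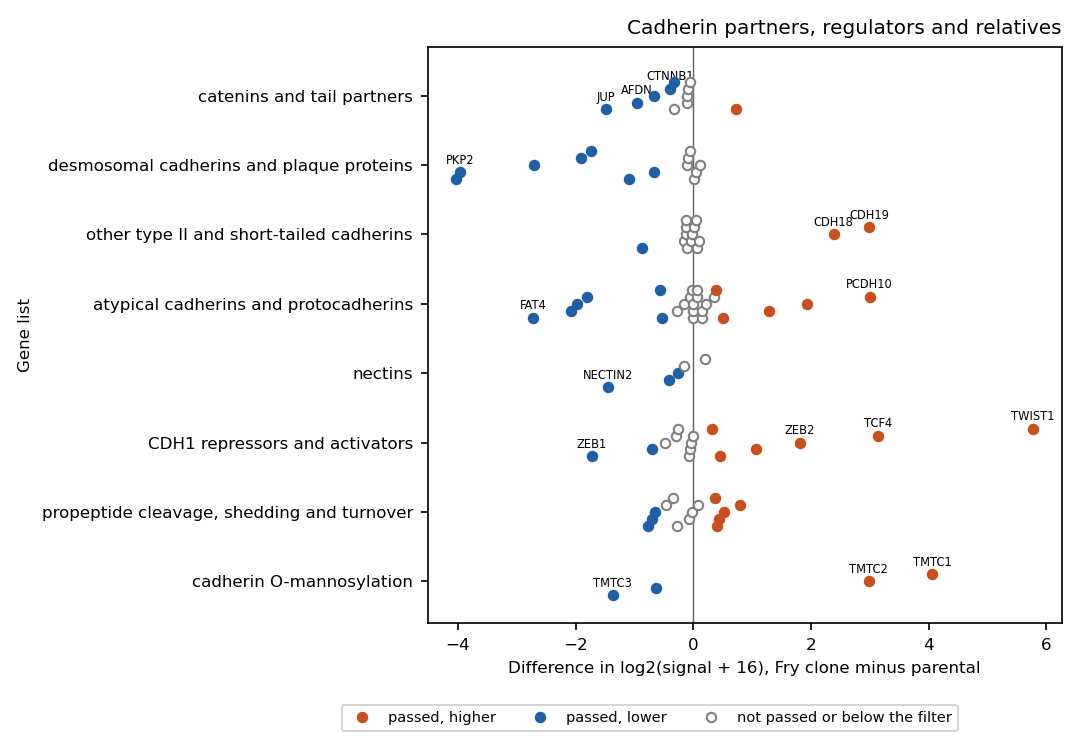
Difference in log2(signal + 16) between the samples labelled Fry clone and the parental samples for genes that bind, process or regulate cadherins and for other cadherins, one row per list and one point per gene at its brightest probe set. Filled points passed (orange higher, blue lower), open points did not pass or lay below the filter, and the desmosomal row holds 7 lower and 0 higher.

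Among 14 other cadherins, mainly type II and short-tailed, 8 lay below the filter and 3 did not pass, while 2 rose and 1 fell. The median log2 difference was -0.04 over the 6 tested. Over all genes tested 67.1% passed, 34.1% higher and 33.1% lower. CDH18 and CDH19, the 2 that rose, averaged below the filter level on the parental arrays and passed it through the other arrays. The count is therefore a description. CDH19, a cadherin known from Schwann cell precursors and melanocytic cells, read 1.0, 0.3 and 4.1 on the parental arrays and 133.9, 124.7 and 117.4 on the others. The difference was 2.99 (SE 0.11, adjusted p = 1.81e-08), and all 3 of its probe sets were higher. CDH18, a neural type II cadherin, read 0.6, 4.4 and 3.1 against 85.0, 75.2 and 84.7, at least 23.8-fold higher (adjusted p = 7.50e-08). CDH24 fell from 73.5 ± 24.0 (SD, n = 3) to 32.1 ± 2.93 (-0.87, adjusted p = 0.0014). Beside CDH19 stood SOX10, a neural crest factor, at 0.43 ± 0.32 and 1395 ± 22.3 in the 2 groups.

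Atypical cadherins and protocadherins moved both ways. Of 24 named genes 15 were tested, and 5 were higher and 6 lower (median log2 difference -0.15). Over all genes tested 67.1% passed, 34.1% higher and 33.1% lower. PCDH10 averaged below the filter level on the parental arrays, and CELSR1 and PCDH7 on the arrays labelled Fry clone. Each passed the filter through its high group, so the count is a description. FAT4, a giant cadherin of planar polarity and Hippo signalling, fell from 133 ± 15.8 (SD, n = 3) to 6.53 ± 0.85, or 20.4-fold (adjusted p = 2.47e-08). FAT3 fell from 108 ± 6.01 to 15.6 ± 2.85 (adjusted p = 1.89e-07). The planar polarity gene CELSR1 was at least 17.2-fold lower (60.6 ± 5.30 to 2.07 ± 0.23, adjusted p = 7.02e-08), though 1 of its 2 tested probe sets did not pass. PCDH10, a protocadherin of neural tissue, rose from 5.03 ± 3.05 to 151 ± 7.13 (adjusted p = 3.27e-08).

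Nectins, which start adherens junctions beside cadherins, were lower in 3 of 4 tested genes (median log2 difference -0.34). Among all genes tested 33.1% were lower. NECTIN2 fell from 301 ± 41.5 (SD, n = 3) to 101 ± 25.2 (-1.45, adjusted p = 3.91e-05) on all 4 of its probe sets. The falls of NECTIN1 (-0.42, adjusted p = 0.017) and NECTIN3 (-0.27, adjusted p = 0.039) were small, and 1 of 2 tested NECTIN1 probe sets did not pass. The count of 3 dropped to 1 without the first parental array and to 1 without the first array labelled Fry clone. The call of NECTIN3 was also lost without the third parental array (adjusted p = 0.11) and without the second array labelled Fry clone (adjusted p = 0.091).

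The transcription factors that repress CDH1 moved in both directions, while CDH1 was dim in both groups. Of 15 named repressors and activators 12 were tested, and 6 were higher and 2 lower (median log2 difference 0.14). Over all genes tested 67.1% passed, 34.1% higher and 33.1% lower. TWIST1, ESRP1 and FOXC2 averaged below the filter level on the parental arrays, and KLF8 on the arrays labelled Fry clone. Each passed the filter through its high group, so the count is a description. The 6 that were higher include the dim FOXC2 (0.32, limma adjusted p = 0.038). Its call was lost with a pseudocount of 1 or 64, without the filter, with an intensity trend and in several fits that left out 1 array. They also include ESRP1, an epithelial splicing factor and not a transcription factor, which rose from 2.87 ± 0.71 (SD, n = 3) to 23.7 ± 4.03 (adjusted p = 1.51e-05). TWIST1, a repressor of CDH1 that also activates CDH2, read 1.1, 2.5 and 1.5 on the parental arrays and 1056.6, 1013.5 and 810.5 on the others, at least 278-fold higher (adjusted p = 4.50e-10). ZEB1 fell from 972.1, 1108.6 and 1192.2 to 313.6, 319.8 and 315.5 (-1.73, adjusted p = 4.64e-07). Its relative ZEB2 rose from 172.7, 137.9 and 172.4 to 564.8, 613.4 and 629.8 (1.81, adjusted p = 6.28e-07). For these genes no array of one group reached the range of the other.

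TCF4, an E-box factor that partners TWIST1, rose from 7.33 ± 1.40 (SD, n = 3) to 189 ± 11.5 (3.13, adjusted p = 5.09e-09) with all 8 of its probe sets. SNAI2 read 682 ± 142 and 664 ± 149 and did not pass (adjusted p = 0.85). The count of lower genes was 1 without the first parental array, since KLF8 then lay below the filter. In the same samples melanocyte and neural crest markers were higher in 7 of 8 tested. Some of these passed the filter only through the arrays labelled Fry clone, so that count is a description.

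**Figure D4:**
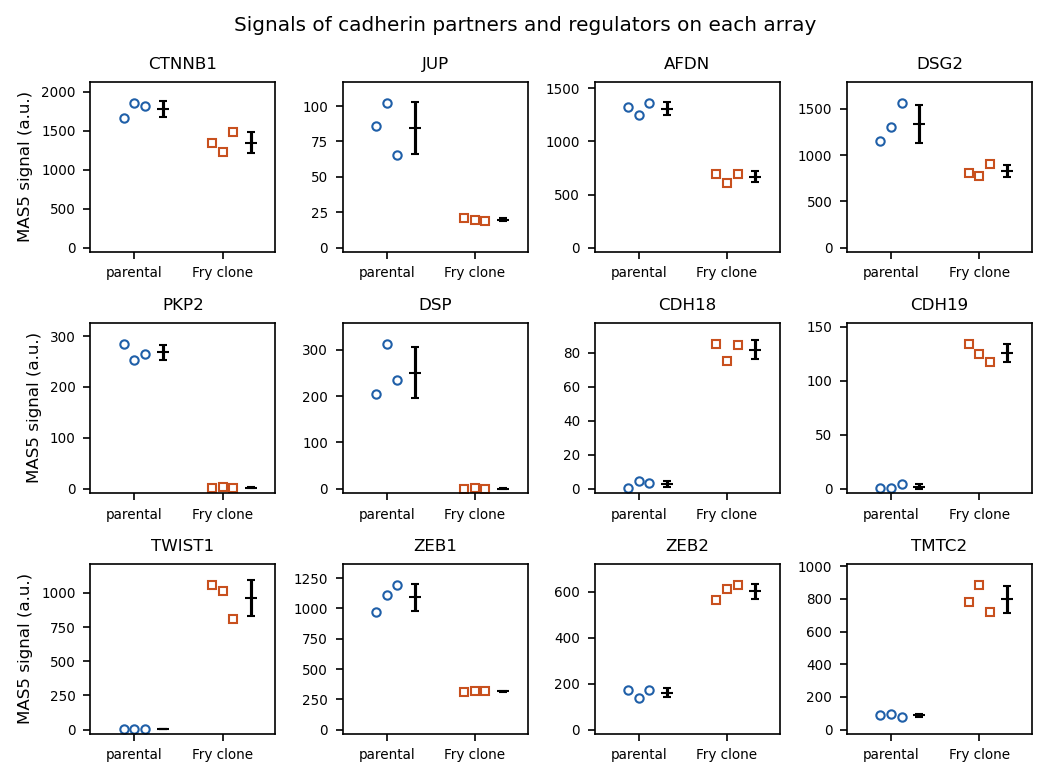
MAS5 signals on a linear scale (arbitrary units) of 12 partners, relatives and regulators of cadherins, with circles for the 3 parental arrays, squares for the 3 arrays labelled Fry clone and a black bar for each group's mean and SD. CTNNB1, JUP, AFDN, DSG2, PKP2, DSP and ZEB1 are lower on the arrays labelled Fry clone, and CDH18, CDH19, TWIST1, ZEB2 and TMTC2 are higher.

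Genes that cleave, shed or recycle cadherins moved both ways. Of 14 named, 12 were tested, with 5 higher and 3 lower (median log2 difference 0.03). Over all genes tested 67.1% passed, 34.1% higher and 33.1% lower, so a passed test does not mark this list. ADAM10, the main sheddase of E- and N-cadherin, read 2641 ± 123 (SD, n = 3) and 2793 ± 225 and did not pass (adjusted p = 0.51), though 1 of its 3 probe sets was higher. The propeptide convertases FURIN (0.37, adjusted p = 0.011) and PCSK7 (0.79, adjusted p = 1.66e-04) were higher, with 1 of 2 tested PCSK7 probe sets not passing. NUMB, an endocytic adaptor, was lower (-0.78, adjusted p = 1.39e-04), as were the sheddase ADAM15 (-0.70, adjusted p = 5.65e-04) and NCSTN, a gamma-secretase subunit (-0.65, adjusted p = 2.89e-04). For ADAM15, 1 of 2 tested probe sets did not pass.

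The TMTC enzymes, which add mannose to the outer domains of cadherins, split in direction. TMTC1 read 4.2, 5.9 and 0.1 on the parental arrays and 361.4, 337.5 and 232.9 on the others (log2 difference 4.06, SE 0.17, adjusted p = 5.72e-08). It averaged below the filter level on the parental arrays and passed the filter through the other arrays. TMTC2 rose from 86.7 ± 11.0 (SD, n = 3) to 796 ± 81.5 (2.98, adjusted p = 3.05e-08), and TMTC3 fell from 618 ± 20.6 to 229.6 ± 16.9 (-1.37, adjusted p = 1.34e-06). All tested probe sets of these 3 genes moved with the values given. TMTC4 fell at its brightest probe set (-0.64, adjusted p = 5.54e-04), but its 2 other probe sets were higher, and the mean over its probe sets was 0.17 (adjusted p = 0.19).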

How the data were processed

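The arrays were read from total RNA of 6 samples, 3 per group, grouped by their titles. Deposited files hold linear intensity in arbitrary units; per the submitters' processing notes, MAS5 was used. Without the top and bottom 2% of probe sets, every array averaged 150.0. The MAS5 version, like its scaling target, is not given in the sources used here. Gene names came from GEO's platform annotation, which assigns 41091 of the 54613 probe sets other than controls to a single gene and 1801 to several, leaving 11721 unnamed here.

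Tests used log2(signal + 16), a scale that understates changes of dim genes, after a filter at the 40th percentile of the mean over the arrays (5.87). The 2 groups were compared in limma 3.58.1 (lmFit, eBayes; R 4.3.3) without covariates. Adjustment of p followed Benjamini and Hochberg over all tested probe sets, with calls under 0.05. Each listed gene was represented by its brightest probe set. Folds compare geometric means of signals, or are lower bounds where each array of a group read at or below its highest unspiked bacterial control. All probe sets of the members are given, and up to 4 genes with the smallest p per list, besides genes named for their role. Members and lists were chosen with earlier results of these data known. When tested on simulated data with 200 of 32771 probe sets changed, it called 85% of those set to a log2 change of 1 and 100% of those set to 2. In the real data 62.6% of tested probe sets were called, so these rates hold for the simulated setting only. Plots used matplotlib 3.10.9 (Python 3.11.15). The number of arrays limits the precision. Alternatives are described in the closing section.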

Additional observations from a re-analysis of the deposited data

How the results depend on the processing

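The alternatives were a pseudocount of 1 or 64, no filter or a 60th percentile filter, quantile normalization, an intensity trend in eBayes, a replicate block, leaving out each array, leaving out probe sets whose suffix marks possible cross-hybridisation, and the mean of a gene's probe sets. A limit to probe sets above background on all 3 arrays of a group was added after the data had been seen. The counts of cadherin probe sets, 2 higher and 4 lower, went to 1 higher and 2 lower without the suffix-marked probe sets. That setting tests fewer probe sets, and over all probe sets it gave 6095 higher and 6485 lower against 9932 and 10574. Leaving out 1 array at a time gave 2 to 2 cadherin probe sets higher, 4 to 5 lower, 8998 to 9719 of all probe sets higher and 9564 to 9970 lower. For the genes around the cadherins it gave 20 to 22 higher and 26 to 31 lower, against 21 and 29. Every CDH2 and CDH11 probe set tested under these settings kept its direction and passed. Counts in single lists also moved: catenins and tail partners lower went from 5 to 2 without the suffix-marked probe sets and higher from 1 to 0, also with a pseudocount of 1 or the 60th percentile filter. That filter took atypical cadherins higher from 5 to 2 and CDH1 regulators from 6 higher and 2 lower to 3 and 1. With the mean of probe sets, CDH1 regulators lower went from 2 to 5, processing genes lower from 3 to 5 and O-mannosylation genes lower from 2 to 1. Nectins higher went from 0 to 1 with a pseudocount of 64 or an intensity trend. TMTC4 turned from -0.64 to 0.17 with the mean of its probe sets. With the replicate block, 2 cadherin probe sets were higher and 4 lower, and no call changed among the cadherins and the called genes of the lists and markers. The genes flanking CDH2 and CDH11 were not refitted under these settings, apart from DSC2 and DSG2. Same-numbered samples deviated together by correlations of 0.07, 0.07 and 0.19 over probe sets, so the numbers were not taken to pair the samples. ARVCF lost its call with a pseudocount of 1 (adjusted p = 0.054), as did NECTIN3 (0.062) and FOXC2 (0.077). Probe sets near background limit what can be said of CDH1, CDH3, CDH5, CDH6 and CDH8.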
